A study of Mus musculus with 7 samples.

Results

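The sarcomeric myosin heavy chain genes described here are 7 of the 31531 genes in the table of normalized counts, chosen by gene symbol. They are the developmental chains *Myh3* (embryonic) and *Myh8* (neonatal), the adult fast chains *Myh1*, *Myh2* and *Myh4*, and the slow and cardiac chains *Myh7* and *Myh6*. RNA was measured in muscle fibers of 7 mouse fetuses at embryonic day 17.5, with 1 library per fetus. The 4 WT fetuses and the 3 fetuses homozygous for the dyW allele came from crosses of heterozygous mice on a C57BL/6 background. The dyW allele disrupts *Lama2*, which encodes the laminin-α2 chain of the muscle basement membrane, and as a germline allele it is not limited to muscle. Fibers were freed enzymatically from the epaxial muscles of the back, and full-length cDNA was amplified before sequencing. The comparison asks how the chains of fetal muscle and those of mature fibers differed between the genotypes.

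Myosin heavy chains are the motor proteins of the thick filament, and a fiber's speed of contraction follows from the chain it makes. Fetal mouse limb and trunk muscle is known for the embryonic and neonatal chains, together with the slow chain in a subset of fibers. The adult fast chains replace the developmental ones mainly after birth, and *Myh6* is best known as the main chain of the adult mouse heart.

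The genes lie in 2 clusters of GRCm39. The first is on the plus strand of chromosome 11 and holds *Myh3* (ENSMUSG00000020908, chr11:66969126-66993117), *Myh2* (ENSMUSG00000033196, chr11:67061838-67088989), *Myh1* (ENSMUSG00000056328, chr11:67089132-67116631), *Myh4* (ENSMUSG00000057003, chr11:67128336-67151274) and *Myh8* (ENSMUSG00000055775, chr11:67167746-67199462). The second, on the minus strand of chromosome 14, holds *Myh6* (ENSMUSG00000040752, chr14:55179367-55205887) and *Myh7* (ENSMUSG00000053093, chr14:55208141-55232084).

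The chains share long stretches of coding sequence, which bears on whether a uniquely mapped read can be given to 1 gene. The following 90 bases open the longest run that any pair shares, 268 bases of *Myh1* and *Myh2*. Each stretch lies within 1 coding exon, is written 5′ to 3′ on the strand of its gene, and has capitals where a base differs from *Myh1*. The stretches begin at coding base 2711 of *Myh1* (chr11:67104045-67104134), 2711 of *Myh2* (chr11:67079144-67079233), 2702 of *Myh4* (chr11:67142542-67142631), 2699 of *Myh8* (chr11:67187928-67188017), 2693 of *Myh3* (chr11:66983167-66983256), 2690 of *Myh7* (chr14:55221143-55221232) and 2696 of *Myh6* (chr14:55190889-55190978).
Myh1: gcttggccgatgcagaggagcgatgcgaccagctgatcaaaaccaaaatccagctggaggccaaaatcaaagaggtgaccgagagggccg
Myh2: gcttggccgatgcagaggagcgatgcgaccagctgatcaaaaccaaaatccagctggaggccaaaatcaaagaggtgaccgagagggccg
Myh4: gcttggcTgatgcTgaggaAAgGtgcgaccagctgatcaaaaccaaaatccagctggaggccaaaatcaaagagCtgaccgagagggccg
Myh8: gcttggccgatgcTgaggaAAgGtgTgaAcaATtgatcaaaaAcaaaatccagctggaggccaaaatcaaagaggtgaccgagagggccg
Myh3: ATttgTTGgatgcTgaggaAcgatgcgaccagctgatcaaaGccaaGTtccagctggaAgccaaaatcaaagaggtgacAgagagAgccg
Myh7: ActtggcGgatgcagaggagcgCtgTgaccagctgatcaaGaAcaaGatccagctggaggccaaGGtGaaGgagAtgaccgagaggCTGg
Myh6: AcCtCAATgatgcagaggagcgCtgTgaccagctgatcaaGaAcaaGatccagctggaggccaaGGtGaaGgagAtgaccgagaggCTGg

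Within these 90 bases *Myh2* had 0 differences from *Myh1*, *Myh4* had 6, *Myh8* had 9, *Myh3* had 13, *Myh7* had 15 and *Myh6* had 19. The slow and cardiac pair shares its own longest run, of 245 bases. Its first 90 bases are shown for that pair and for *Myh3*, with capitals where a base differs from *Myh7*. They begin at coding base 4240 of *Myh7* (chr14:55212715-55212804), 4246 of *Myh6* (chr14:55186093-55186182) and 4243 of *Myh3* (chr11:66987771-66987860), again within 1 exon.
Myh7: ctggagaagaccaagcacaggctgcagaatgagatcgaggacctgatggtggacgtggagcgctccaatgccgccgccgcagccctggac
Myh6: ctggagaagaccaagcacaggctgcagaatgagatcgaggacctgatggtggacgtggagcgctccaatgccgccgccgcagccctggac
Myh3: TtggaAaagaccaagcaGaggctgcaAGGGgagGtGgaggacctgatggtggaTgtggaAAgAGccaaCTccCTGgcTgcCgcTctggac

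*Myh3* differed from *Myh7* at 22 of these 90 bases and *Myh6* at 0. Over the whole coding sequence, *Myh7* and *Myh6* were 91.7% identical, *Myh1* and *Myh2* 90.9%, and *Myh1* and *Myh4* 90.1%. *Myh3* stood further off, with 80.2% to 81.0% identity to the other chains of its cluster. Of all windows of 50 bases in the canonical transcript, 3.66% of those of *Myh3* occurred unchanged in another chain, against 18.8% to 23.9% for the other 6. At 100 bases, 0% of the windows of *Myh3* and 3.89% to 11.4% of those of the other chains were shared. Low counts of *Myh1*, *Myh2*, *Myh4*, *Myh8*, *Myh6* and *Myh7* are therefore uncertain to the extent that reads in such windows were dropped as not unique. On the opposite strand, *Myhas* overlaps *Myh1* and *Myh4*, and *Mhrt* overlaps *Myh6* and *Myh7*. The strand setting of the counting is not given in the sources used here, so reads of a chain and of its antisense partner cannot be told apart.

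The libraries differed in depth and in content. Each WT library had 470804 to 2220813 reads on genes and each dyW library 3663905 to 18297106, so 1 read was worth 2.05 to 5.33 normalized counts in WT and 0.0974 to 0.488 in dyW. *Lama2*, the targeted gene, was at 90.6 to 111 normalized counts in WT and at 4.29 in dyW1 and 6.07 in dyW2. In the remaining library of that group it was at 139.7, above every WT library, which goes against its label. That library is called the library labelled dyW3. The log2 fold changes and calls of the chains and their mean developmental share are given with and without it. Group means, depth-weighted ratios and fold limits are given only with it. Defining myofiber genes were low in dyW1: 5 of 12 myofiber markers had no read there, and their summed normalized count was 69.9, against 8983 and 11915 in the other dyW libraries and 3092 to 96729 in WT. The summed level of 6 fibroblast markers was 4116 to 12484 in WT and 20348 to 28134 in the dyW libraries, and that of 4 cartilage markers was 422511 in WT1, against at most 8525 in any other library. PCR reads without molecular identifiers are not independent molecules, so the intervals and limits below cover no more than the error of counting.

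The developmental chains were present in both groups, and their levels overlapped. *Myh3* was at 21.3, 72.8, 75.9 and 53.5 normalized counts in WT1 to WT4, from 4, 27, 37 and 17 reads. It was at 0 in dyW1, at 219.8 in dyW2, from 1738 reads, and at 15.6 in the library labelled dyW3, from 32 reads. The highest and the lowest of the 7 values were both in the dyW group, with every WT library between them. As fibers were lysed in bulk, fewer cells of a type and less RNA per cell cannot be told apart here or for any other chain.

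The mean of *Myh3* was 55.9 ± 25.1 normalized counts in WT (SD, n = 4) and 78.5 ± 123 in dyW (SD, n = 3), a difference smaller than the spread between the dyW libraries (exact two-sided permutation test, p = 0.857). On the log2(normalized count + 1) scale, which understates the change of genes with low counts, the log2 fold change of dyW against WT was −1.73 (SE 1.57, 95% interval −5.30 to 1.83, limma adjusted p = 0.427). The fold change on the log scale and the difference of the means had opposite signs. Without dyW1 the log2 fold change was 0.24 (limma adjusted p = 0.885), without dyW2 it was −3.65 (limma adjusted p = 0.0522), and without the library labelled dyW3 it was −1.79. The adjusted p of *Myh3* ranged from 0.0522 to 0.885 over all alternatives.

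*Myh8*, the chain that dominates around birth, was at 26.7, 89.0, 129 and 107 normalized counts in WT1 to WT4, from 5, 33, 63 and 34 reads. In dyW1 it was at 0, in dyW2 at 114, from 901 reads, and in the library labelled dyW3 at 92.3, from 189 reads. The last 2 values lay inside the range of the WT libraries, and dyW1 lay below it. The mean was 88.0 ± 44.1 in WT (SD, n = 4) and 68.7 ± 60.5 in dyW (SD, n = 3), which did not differ beyond this spread (exact two-sided permutation test, p = 0.571). The log2 fold change was −1.80 (SE 1.57, 95% interval −5.37 to 1.77, limma adjusted p = 0.409). It turned to 0.43 without dyW1 (limma adjusted p = 0.704, with a range of 0.189 to 0.704 over all alternatives) and was −2.84 without the library labelled dyW3. In dyW1 a count of 0 allows up to 3 reads, or 0.292 normalized counts, for either developmental chain.

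**Figure D1:**
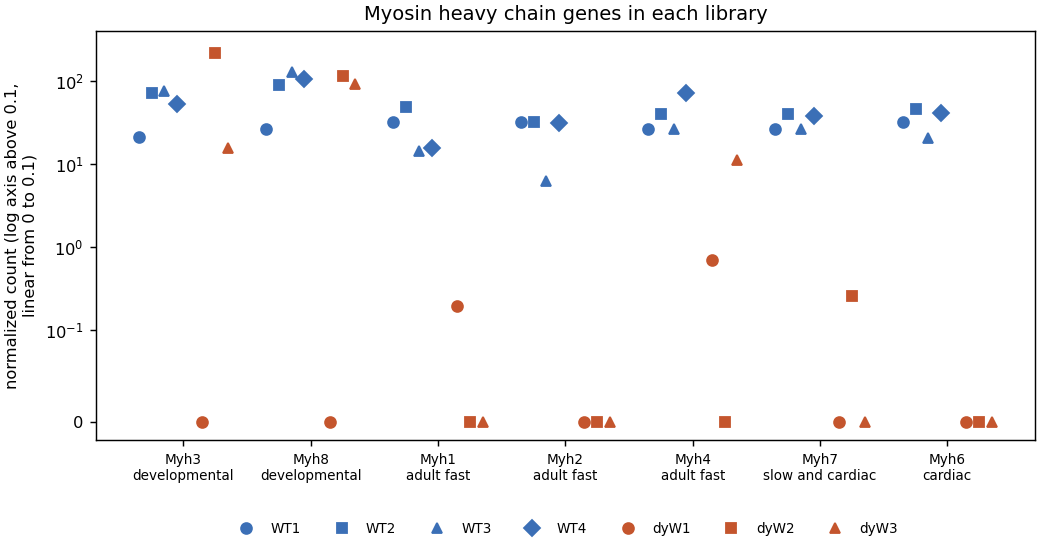
Normalized counts of the 7 myosin heavy chain genes (vertical axis, logarithmic above 0.1 and linear from 0 to 0.1) in each of 4 WT libraries (blue) and 3 dyW libraries (orange), 1 point per library. *Myh3* reaches 219.8 in dyW2 and 0 in dyW1, whereas for *Myh1*, *Myh2*, *Myh4*, *Myh7* and *Myh6* every WT point lies above every dyW point.

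Of the adult fast chains, *Myh1* and *Myh2* fell past the threshold and *Myh4* did not. A gene is termed called at an adjusted p under 0.01 and an absolute log2 fold change over 1.5. *Myh1*, the chain of type IIX fibers, was at 32.0, 48.5, 14.4 and 15.7 normalized counts in WT1 to WT4, from 6, 18, 7 and 5 reads. It had 2 reads in dyW1, a normalized count of 0.195, and 0 reads in dyW2 and in the library labelled dyW3. Every WT library lay above every dyW library, although no WT value rested on more than 18 reads. The mean fell from 27.7 ± 16.1 (SD, n = 4) to 0.0650 ± 0.113 (SD, n = 3), and the log2 fold change was −4.58 (SE 0.724, limma adjusted p = 0.00372). Pooled over the libraries of a group and weighted by depth, the level in WT was 267 times that in dyW, with a 95% counting interval of 68.7 to 2288.

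*Myh2*, the chain of type IIA fibers, was at 32.0, 32.4, 6.15 and 31.5 normalized counts in WT1 to WT4, from 6, 12, 3 and 10 reads. No dyW library held a read of it. WT3 was the lowest WT library, and it still lay above the limits of 0.292, 0.379 and 1.47 normalized counts that a count of 0 allows in the 3 dyW libraries. With a WT mean of 25.5 ± 12.9 (SD, n = 4), the gene was at least 35.8-fold lower in dyW, against a floor of 3 reads per library. That floor, 0.712 normalized counts, is the mean of these 3 limits. The library labelled dyW3 has the highest limit, so without it the floor would be lower and the fold limit higher. The log2 fold change of *Myh2* was −4.49 (SE 0.790, limma adjusted p = 0.00430).

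*Myh4*, the chain of type IIB fibers, was at 26.7, 40.5, 26.7 and 72.4 normalized counts in WT1 to WT4, from 5, 15, 13 and 23 reads. It was at 0.682 in dyW1, from 7 reads, at 0 in dyW2, and at 11.2 in the library labelled dyW3, from 23 reads. The groups did not overlap, yet *Myh4* was the only adult chain with more than 2 reads in any dyW library. The means were 41.5 ± 21.6 (SD, n = 4) and 3.97 ± 6.30 (SD, n = 3), with a log2 fold change of −3.83 (SE 0.979, limma adjusted p = 0.0161). The adjusted p missed the threshold of 0.01. Without the library labelled dyW3 the log2 fold change was −4.91 and *Myh4* was called (limma adjusted p = 0.00197, with a range of 0.00197 to 0.327 over all alternatives).

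The slow and cardiac chains showed the same absence of overlap. *Myh7*, the chain of slow fibers and of the cardiac ventricle before birth, was at 26.7, 40.5, 26.7 and 37.8 normalized counts in WT1 to WT4, from 5, 15, 13 and 12 reads. In the dyW group, 2 reads in dyW2, a normalized count of 0.253, were all that was counted. The mean fell from 32.9 ± 7.27 (SD, n = 4) to 0.0843 ± 0.146 (SD, n = 3), a log2 fold change of −4.95 (SE 0.650, limma adjusted p = 0.00372). The depth-weighted level in WT was 334 times that in dyW (95% counting interval 87.1 to 2839).

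*Myh6*, known from the heart, was at 32.0, 45.8, 20.5 and 40.9 normalized counts in WT1 to WT4, from 6, 17, 10 and 13 reads, and no dyW library held a read. It was at least 48.9-fold lower in dyW, against the floor of 3 reads per library and a WT mean of 34.8 ± 11.1 (SD, n = 4). As for *Myh2*, this limit would be higher without the library labelled dyW3. The log2 fold change was −5.10 (SE 0.669, limma adjusted p = 0.00372), the most negative of the 7 chains. Of 13 cardiomyocyte markers, 8 were in the table, and among these *Myl7*, *Gata4* and *Tbx5* had no read in any dyW library. Their reads in WT numbered 14, 24 and 12 over the 4 libraries, and the summed level of the 8 markers was 192 to 421 normalized counts in WT and 2.63 to 383 in dyW. All 8 had a negative log2 fold change. Yet *Tnnt2* was at 0, 240 and 228 in dyW1, dyW2 and the library labelled dyW3, against 64.0 to 117 in WT. *Ryr2* was at 0.487, 0 and 142 in the same dyW libraries, against 64.0 to 162 in WT. The part of cardiac RNA in the values of *Myh6* and *Myh7* was not tested.

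Over the family, 4 of 7 chains (*Myh1*, *Myh2*, *Myh7* and *Myh6*) were called lower and 0 higher by limma, where 18.7% of all 25791 genes tested were called lower and 0.0659% higher. All 7 passed the filter of a mean normalized count of at least 5 over the 7 libraries, but the 5 adult chains passed it through WT alone, so their count is a description. At an adjusted p under 0.05 all 5 adult chains were lower, against 29.6% of all genes, and 0 chains were higher by limma, also at an unadjusted p under 0.05. Among tested genes with a mean from 5 to under 50 normalized counts, where the 5 adult chains lie, 23.8% were called lower. The split of genes at an adjusted p under 0.05 was 7625 lower and 259 higher with the deposited scaling, 4473 and 1140 with every library at 1 common total, and 82 and 17 after quantile normalization. Every WT library lay above every dyW library for 5 of 7 chains and for 31.5% of all genes, and the reverse held for 0 of 7 chains and for 3.28% of all genes. For each of these 5 the exact two-sided permutation test gave p = 0.0571, the smallest that 4 against 3 libraries allow. Whether the fold changes of the developmental and the adult chains differed from each other was not tested.

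The calls depended on which libraries were compared. Without dyW1, 3 chains were called lower (*Myh1*, *Myh7* and *Myh6*), beside 2090 of all 26945 genes tested in that fit. Without the library labelled dyW3, 5 were, beside 6698 of all 25971 genes tested. In the latter fit the log2 fold changes were −4.54 for *Myh1*, −4.49 for *Myh2*, −4.89 for *Myh7* and −5.10 for *Myh6*. None were called when WT2, WT4 or dyW2 was left out, although in each of these fits at least 5 chains were lower by limma at an unadjusted p under 0.05. In the same fits 0 of all genes were called lower, with 7774 to 9233 lower genes at an unadjusted p under 0.05. With each of the 7 libraries left out in turn, the log2 fold changes of the 5 adult chains lay between −5.33 and −3.11.

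The median log2 fold change of all tested genes was −1.99, and the changes of the chains are also given against it. Relative to this median, *Myh3* stood at 0.26, *Myh8* at 0.19, *Myh4* at −1.84, *Myh2* at −2.50, *Myh1* at −2.60, *Myh7* at −2.96 and *Myh6* at −3.11. When every library was scaled to 1 common total, where the median was −0.98, *Myh3* was at −0.01 and *Myh8* at −0.07 relative to it, and the adult chains were between −2.07 and −3.80. After quantile normalization, where the median was 0.06, the developmental chains lay at −1.11 and −1.38 and the adult chains between −1.55 and −2.74. The adult chains were thus below the median of all genes under each scaling, whereas the developmental chains changed sign against it. The median differed by level: it was −2.58 for tested genes with a mean from 5 to under 50 normalized counts, where the adult chains lie, and 0.20 for those with a mean of at least 50. Relative to the latter, which holds genes of their own level, *Myh3* stood at −1.93 and *Myh8* at −2.002.

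**Figure D2:**
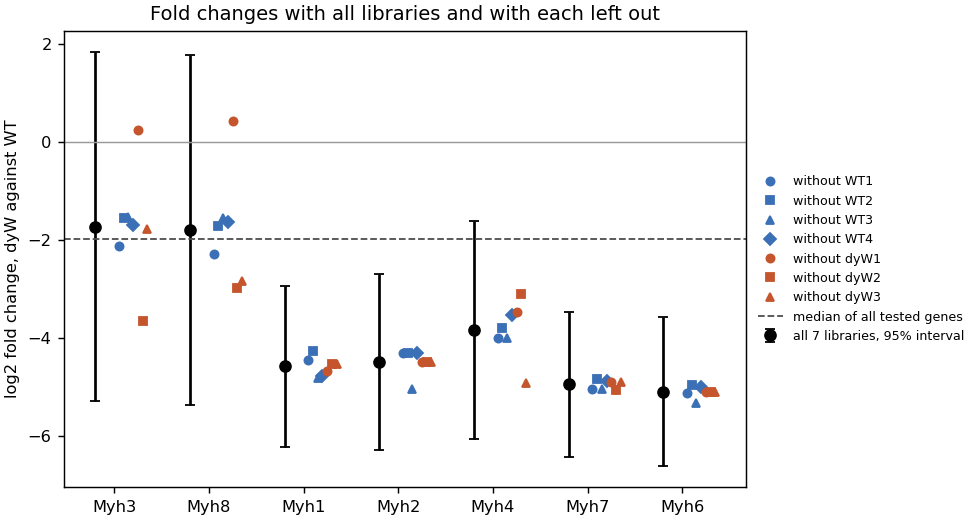
Log2 fold change of dyW against WT on the log2(normalized count + 1) scale for each chain, with all 7 libraries (black, 95% interval from limma) and with each library left out in turn (blue, a WT library; orange, a dyW library). The dashed line is the median of all tested genes at −1.99. *Myh3* and *Myh8* cross 0 without dyW1, at 0.24 and 0.43, and the adult chains stay at −3.11 or below.

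The level of the chains in WT was set against genes of other tissues, per length of exon. Odorant and vomeronasal receptors are known for their expression in sensory neurons of the nose. Of 1269 such genes, 79.6% to 98.3% had a read in a WT library, against 15.9% in dyW1, 9.85% in dyW2 and 56.4% in the library labelled dyW3. Their median was 0.641, 2.49, 1.76 and 1.86 reads per kb in WT1 to WT4, 0 in dyW1 and dyW2, and 1.09 in the library labelled dyW3. Receptor genes with a read were thus more frequent in every WT library than in any dyW library, while *Myh1*, *Myh2*, *Myh7* and *Myh6* had at most 2 reads in any dyW library. How far the WT values of the chains share the source of the reads on receptor genes was not tested.

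The 20 WT values of the adult chains were 0.197 to 1.87 times the median of the receptor genes per kb of exon, with a median of 0.719. For 14 of these 20 the 95% counting interval held the receptor level. *Myh7* was at 0.604 to 0.781 times this level in the 4 libraries, and *Myh4* at 0.910 to 1.87 times. The 8 WT values of the developmental chains were 0.641 to 3.20 times the receptor level, with a median of 1.45. Of these 8 values 6 were under 2, and 4 had a counting interval that held the receptor level. WT3 held the highest ratios, 3.20 for *Myh3* and 2.94 for *Myh8*, and WT1 the lowest, 0.951 and 0.641.

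**Figure D3:**
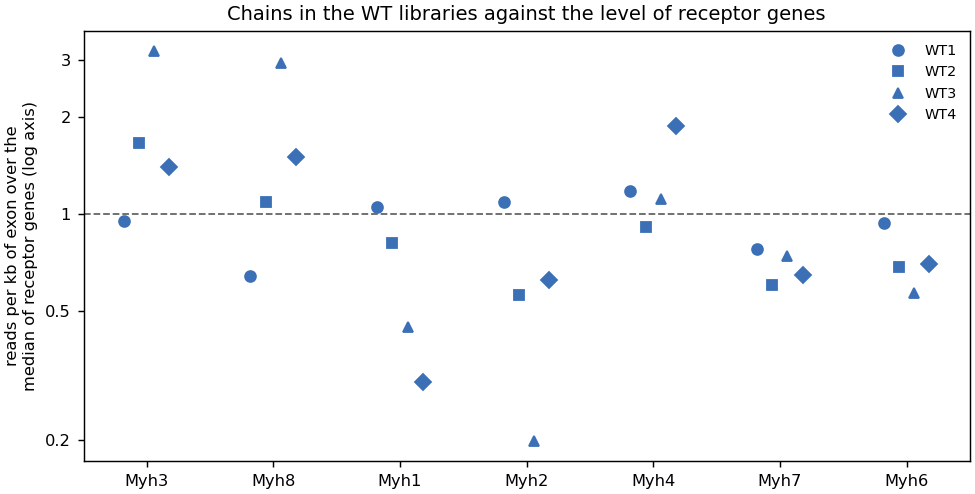
Reads per kb of exon of each chain divided by the median of 1269 odorant and vomeronasal receptor genes on the same scale (vertical axis, logarithmic) in the 4 WT libraries, 1 point per library. The dashed line marks the receptor level, and the values run from 0.197 (*Myh2*) to 3.20 (*Myh3*), both in WT3.

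The order of the chains on the same scale differed between the dyW libraries. In dyW1, where the median receptor gene had no read, *Myh4* was at 1.06 reads per kb and *Myh1* at 0.225, against 0 for the other 5 chains, the developmental ones included. In dyW2, with the same receptor median of 0, *Myh3* was at 264.9 reads per kb and *Myh8* at 74.1, against 0.20 for *Myh7* and 0 for the other adult chains. In the library labelled dyW3, *Myh8* was at 14.2 times the receptor level, *Myh3* at 4.47 times and *Myh4* at 3.18 times, while *Myh1*, *Myh2*, *Myh7* and *Myh6* had no read. Exon length matters most for *Myh8*, whose annotated exons add to 12161 bases against 6149 in its canonical transcript. The next ratios take each chain per kb of its canonical transcript, with the receptor level still per kb of exon. *Myh8* was then at 1.27 to 5.81 times that level in WT, and *Myh3* at 1.03 to 3.47 times. *Myh7* was at 0.983 to 1.27 times and *Myh6* at 0.908 to 1.499 times. As the receptor genes were not put on transcript length, these ratios do not show whether a chain lay above or below them.

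The composition of the family followed from these levels. The 7 chains together took 37, 137, 146 and 114 reads in WT1 to WT4, and 9, 2641 and 244 reads in dyW1, dyW2 and the library labelled dyW3. Per kb of exon, the developmental chains made up 24.0%, 43.5%, 66.7% and 41.2% of the summed chains in WT, and 0%, 99.9% and 85.5% in the dyW libraries in the same order. The dyW libraries lay on both sides of the WT range, and the value of 0% rested on 9 reads, 2 of *Myh1* and 7 of *Myh4*. As a share of reads, the developmental chains took 24.3% in WT1 (exact Clopper-Pearson 95% interval 11.8% to 41.2%), 68.5% in WT3 (60.3% to 75.9%) and 99.9% in dyW2 (99.7% to 99.99%). For dyW1 the upper bound was 33.6%.

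The mean developmental share was 43.8% ± 17.5 in WT (SD, n = 4) and 61.8% ± 54.0 in dyW (SD, n = 3), so the difference was smaller than the spread between the dyW libraries. Leaving out dyW1 raised the dyW mean to 92.7%, and leaving out dyW2 or the library labelled dyW3 lowered it to 42.7% and 49.97%. With the receptor level subtracted from each chain, the WT mean was 62.1% and the dyW mean 62.8%. The balance between the developmental chains also varied. *Myh8* was 0.659 to 1.08 times *Myh3* per kb of exon in WT, 0.280 times in dyW2 and 3.19 times in the library labelled dyW3, so the dyW libraries lay on either side of the WT range. Per kb of canonical transcript the ratio was 1.20 to 1.96 in WT, 0.509 in dyW2 and 5.80 in the library labelled dyW3. Which chain was higher in WT thus depended on the length used, and the place of the dyW libraries outside the WT range did not.

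**Figure D4:**
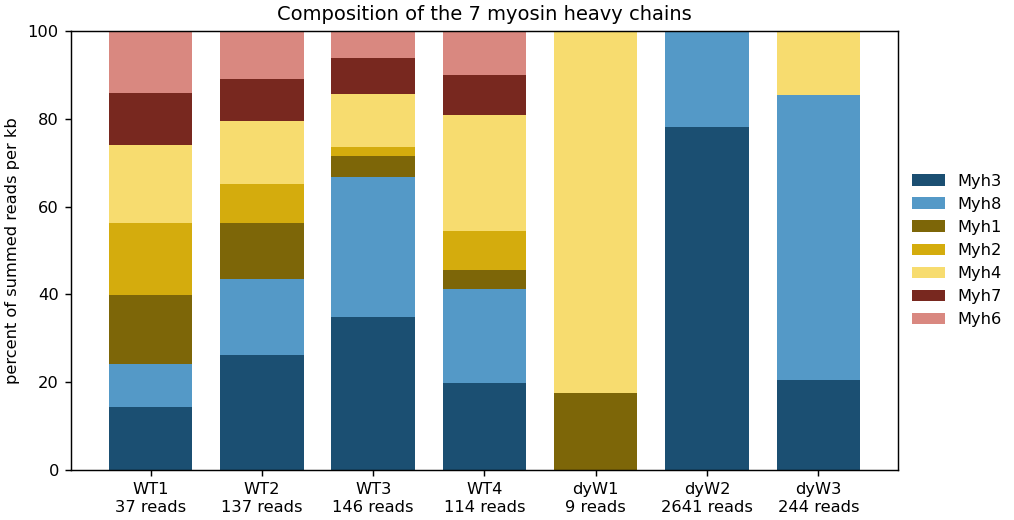
Share of each chain in the summed reads per kb of the 7 chains (vertical axis, percent) in each library, with the number of reads of the chains under its name. The developmental chains (blue) take 24.0% to 66.7% in WT, 0% in dyW1, which has 9 reads, 99.9% in dyW2 and 85.5% in the library labelled dyW3.

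The chains were a small part of the sarcomeric RNA in every library. Per 1000 reads per kb of the 12 myofiber markers, which include *Acta1* (skeletal actin) and the light chains *Mylpf* and *Myl1*, the 7 chains took 27.9, 4.13, 1.05 and 4.75 reads per kb in WT1 to WT4. They took 8.51 in dyW1, 9.79 in dyW2 and 3.46 in the library labelled dyW3. These values lay inside the WT range only through WT1, since dyW1 and dyW2 were above the other 3 WT libraries. *Acta1* itself was at 1973, 10199, 52989 and 5846 normalized counts in WT, and at 4.09, 3667 and 1807 in the dyW libraries in the same order. Of the 12 myofiber markers 0 were called by limma or voom. In limma 3 were lower at an unadjusted p under 0.05, where 10707 of all 25791 tested genes were. At an adjusted p under 0.05 there was 1, *Ttn*, where 29.6% of all genes were lower. The median log2 fold change of the 12 was −2.73. The fibroblast markers had a median of 1.503, with 0 of 6 called in limma, and 1 and 0 called higher in the voom fits. At an adjusted p under 0.05 in limma 2 were higher, where 259 of all 25791 tested genes were. At an unadjusted p under 0.05 in limma 2 were higher as well, where 726 of all 25791 tested genes were. Of the 4 cartilage markers, 1 was called lower by limma, as were 3 of the 8 cardiomyocyte markers, where 18.7% of all genes were called lower. These 4 genes passed the filter on low counts through WT alone, so their calls are a description. The summed normalized count of the 7 chains was 197, 369, 299 and 359 in WT and 0.877, 334 and 119 in dyW.

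Likeness across libraries was described with Pearson's r over 7 libraries, on the log2(normalized count + 1) scale. Each chain was set against the genes with a mean of at least 50, whose points share depth and scaling. *Myh8* was closest to *Mfap4* (r = 0.999), a microfibril protein gene, and to *Des* (r = 0.995), the muscle intermediate filament gene. *Myh3* was closest to *Tmem254a* (r = 0.981) and *Plcb4* (r = 0.980). Among the 3 genes closest to each adult chain were the vomeronasal receptor gene *Vmn1r43* for *Myh6* (r = 0.995), the odorant receptor genes *Olfr1336* for *Myh7* (r = 0.991) and *Olfr1489* for *Myh4* (r = 0.981), *Gm21833* for *Myh2* (r = 0.997) and *Gm48418* for *Myh1* (r = 0.988).

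Other myosin heavy chains were called lower in 1 of 7 cases by limma, beside 18.7% of all tested genes, with a median log2 fold change of −2.36 beside −1.99. The called gene was *Myh7b*, an ancient sarcomeric chain, at 32.0, 24.3, 12.3 and 47.2 normalized counts in WT, 2.05 and 0.759 in dyW1 and dyW2, and 0 in the library labelled dyW3 (limma adjusted p = 0.00549), but 0 of the 7 were called by voom on the recovered reads. At an adjusted p under 0.05, *Myh14* and the smooth muscle chain *Myh11* were also lower, which makes 3 of 7 beside 29.6% of all tested genes. The non-muscle chains *Myh9* and *Myh10* had log2 fold changes of 0.50 (SE 0.718) and 0.03 (SE 0.620), with limma adjusted p = 0.622 and 0.975. *Myh10* was at 38.97 to 135 normalized counts in WT and 85.9 to 103 in dyW. Of the antisense RNAs, *Myhas* had 12 reads and *Mhrt* 11 over the 4 WT libraries, and neither had a read in dyW. *Myhas* was called lower (log2 fold change −3.23, limma adjusted p = 0.00717), although this difference turned to 0.10 after quantile normalization.

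The partners of the chains are read beside the 18.7% of all tested genes called lower and the 0.0659% called higher. At an adjusted p under 0.05, 29.6% of all tested genes were lower, and 259 of 25791 were higher. Of 11 myosin light chain genes, which stabilize and tune the lever arm of the motor, 0 were called by limma, 0 passed an adjusted p under 0.05, and 2 were lower at an unadjusted p under 0.05. In either voom fit 1 was called lower. Their median log2 fold change was −2.07. *Mylpf*, the fast regulatory light chain, was at 128 to 10782 normalized counts in WT and at 11.9, 1665 and 1714 in dyW. Of 14 thick filament partners and myosin chaperones, *Mybpc3*, the cardiac myosin-binding protein C, was called lower, with 35 reads over the WT libraries and 0 in dyW (limma adjusted p = 0.00374). *Hsp90aa1*, whose product takes part in the folding of the myosin motor domain, was the only one called higher. It was at 197, 146, 261 and 94.4 normalized counts in WT and at 780, 899 and 941 in dyW, a log2 fold change of 2.41 (SE 0.504, limma adjusted p = 0.00679). The median over these 14 genes was −2.66, and 4 were lower and 1 higher at an adjusted p under 0.05.

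The same shares of all genes apply to genes of fast and slow fibers, where lists this short would hold few called genes at the background share. Of 7 fast fiber genes tested (of 8), 0 were called by limma or voom, 2 were lower at an unadjusted p under 0.05 in limma, and 1, *Actn3*, at an adjusted p under 0.05. Their median log2 fold change was −2.07. Of 9 slow fiber genes, 0 were called by limma or voom, 0 passed an adjusted p under 0.05 in limma, and 2 were lower at an unadjusted p under 0.05, with a median of −1.39. *Tnni2*, the fast troponin I gene, was at 938 normalized counts in dyW2 and 465 in the library labelled dyW3, against 80.0 to 2096 in WT. *Tnni1*, its slow counterpart, was at 176 and 138 in these libraries and at 21.3 to 720 in WT. In dyW1 they were at 0.390 and 8.38. Of 22 regulators of fiber type tested, *Eya2*, a transcriptional cofactor of muscle development, was called lower, with 27 reads over the WT libraries and 0 in dyW (limma adjusted p = 0.00388). The others were not called, *Maf* was higher at an adjusted p under 0.05, and the median was −0.60. *Mybpc3*, *Eya2*, *Myh7b* and *Myhas*, like the adult chains, passed the filter on low counts through WT alone, so their calls are a description. Per kb of exon in the WT libraries, *Mybpc3* was at 0.749 to 1.94 times the receptor level and *Eya2* at 0.862 to 1.59 times. *Myh7b* was at 0.503 to 1.38 times and *Myhas* at 0.125 to 1.09 times. In the fits without WT2, WT4 or dyW2 none of these list genes was called. *Hsp90aa1* also lost its call without WT1, dyW1 or the library labelled dyW3 (limma adjusted p = 0.0102, 0.0191 and 0.0175) and in voom with the deposited size factors, with adjusted p from 0.00316 to 0.180 over all alternatives. *Eya2* and *Myhas* lost theirs without dyW1, and *Myhas* also without the library labelled dyW3. *Myh7b* lost its call without WT1 (limma adjusted p = 0.0155) and with a pseudocount of 0.1 (limma adjusted p = 0.0117), with a range of 0.00502 to 0.751 over all alternatives. Without the library labelled dyW3 the log2 fold changes of *Mybpc3*, *Eya2* and *Myh7b* were −4.52, −4.18 and −3.55, still called. In the same fit, without the library labelled dyW3, *Myh11* and *Myh14* were called as well, at −5.04 and −3.85 (limma adjusted p = 0.00245 and 0.00495, with ranges of 0.00245 to 0.236 and 0.00495 to 0.698 over all alternatives).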

How the data were processed

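RNA of muscle fibers from 4 WT and 3 dyW fetuses at embryonic day 17.5 was sequenced, and libraries were grouped by the genotype in the sample labels. The authors used Cutadapt for trimming and STAR for alignment to GRCm39, counted uniquely mapped reads per gene and deposited normalized counts, which are counts divided by 1 size factor per library. They also deposited fold changes and p-values of a DESeq2 comparison, which were not used. Tool versions and the annotation release are not given in the sources used here.

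Within a tolerance of 0.1 read, 100% of the values of each library were whole multiples of 1 step, so whole reads were recovered (470804 to 18297106 per library). Coordinates, exon lengths and coding sequences came from GENCODE mouse release 39, where 99.2% of identifiers matched, and mafft 7.526 aligned the coding sequences. Genes with a mean of at least 5 normalized counts were compared on log2(normalized count + 1) in R 4.3.3, with limma 3.58.1 (eBayes with trend, Benjamini-Hochberg adjustment). This differs from the count model of the study, and no such model was fitted here. A gene was called at an adjusted p under 0.01 and an absolute log2 fold change over 1.5. For single chains an exact two-sided permutation test was used, in which 4 and 3 libraries can be drawn in 35 ways. A count of 0 was taken to allow 3 reads, and ratios of reads have exact 95% intervals. Other steps used matplotlib 3.10.9, scipy 1.17.1, pandas 2.3.3 and numpy 2.4.6 in Python 3.11.15, and the fit was tested on simulated data.

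The 7 chains and the gene lists were chosen with earlier results of these data known. The genes named are the 7 chains, *Lama2*, members of the lists (other myosin heavy chains, myosin light chains, thick filament partners and chaperones, fast and slow fiber genes, regulators of fiber type, antisense RNAs of the loci, and markers of myofibers, cardiomyocytes, fibroblasts and cartilage) and genes among the 3 most like each chain, of which 1 is not reported here. Libraries come from separate fetuses, so the p-values measure the spread between fetuses together with that of handling and library making. Alternatives were a pseudocount of 0.1 or of 10, a filter at a mean of 50 or none, scaling to the same total, quantile normalization, a replicate block, an adjusted p under 0.05 and leaving out each library. For the shares of the chains they were reads not divided by length, leaving out *Myh6* and *Myh7*, and subtracting the receptor level. Voom on recovered reads and the canonical transcript length were chosen after seeing the data.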

Additional observations from a re-analysis of the deposited data

Results flagged for a closer look

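*Myh2* in the WT libraries was flagged because 1 library stood far from the other 3. WT3 held 6.15 normalized counts, from 3 reads, while the other libraries held 31.5 to 32.4, and the gap was 0.966 of the range, above the critical value of 0.829 of Dixon's test for 4 values. The amount of the 7 chains per 1000 reads per kb of myofiber markers was flagged in the same way, with a gap of 0.862 of the range. WT1 was at 27.9 and the other WT libraries at 1.05 to 4.75. WT1 was also the shallowest library, and its summed myofiber markers were the lowest of the WT group, at 3092 normalized counts. In all, 11 such groups of WT values were tested, and chance flags about 1 in 20 groups. No explanation of either value was tested.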

How the results depend on the processing

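The 4 chains called lower (*Myh1*, *Myh2*, *Myh7* and *Myh6*) were also called with a pseudocount of 0.1, without a filter, and with voom on recovered reads with library totals or with the deposited size factors, both added after seeing the data. Genes called lower in all numbered 5169, 4803, 5329 and 6079 in these fits, in the same order. The number of chains called lower was 0 by limma with a pseudocount of 10, a mean of at least 50, scaling to the same total, quantile normalization and the replicate block. At an unadjusted p under 0.05 these gave 5, 0, 5, 2 and 5 lower chains, and with a mean of at least 50 only *Myh3* and *Myh8* were tested, since fewer genes pass. With each library left out it was 0 to 5, and 0 chains were called higher in any fit. Genes called lower in all numbered 4830, and 0 with a pseudocount of 10 (9849 at an unadjusted p under 0.05), a mean of at least 50 (536) or the same total (6537), against 2 after quantile normalization, 1 with the replicate block, 7625 at an adjusted p under 0.05 and 0 to 6698 with a library left out. Genes called higher numbered 17, against 41 with a pseudocount of 0.1, 10 without a filter, 69 and 5 with voom, 259 at an adjusted p under 0.05, 0 to 25 with a library left out, and 0 in the other fits named (777, 717, 2483, 2216 and 300 higher at an unadjusted p under 0.05 with a pseudocount of 10, a mean of at least 50, the same total, quantile normalization and the block). The replicate numbers did not pair the libraries: the correlations of the deviations of same-numbered libraries were 0.147, −0.05 and −0.09. Without dyW1, *Myh3* turned to a log2 fold change of 0.24, *Myh8* to 0.43, *Myh9* to −0.19 and *Myh10* to −0.04. With each library left out, they ranged from −3.65 to 0.24, −2.99 to 0.43, −0.19 to 0.92 and −0.37 to 0.22. *Myh10* was also at −0.37 without WT3 and at −0.48 after quantile normalization, where *Myhas* was at 0.10 and *Mhrt* at 0.28. The mean developmental share in WT was 62.1% with the receptor level subtracted, and 36.2% to 50.4% with a WT library left out. That in dyW was 42.7% to 92.7% with a dyW library left out. The cause of these changes was not tested. Planned count models (edgeR and DESeq2 on the recovered reads) were not run. Depth limits the WT values, as no adult chain had more than 23 reads in a WT library.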
